A study of Mus musculus with 36 samples.

Results

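The 10 genes described here are a panel of astrocyte genes chosen by symbol, out of 37315 genes in the count table: Gfap, S100b, Aqp4, Gja1, Gjb6, Slc1a2, Slc1a3, Aldh1l1, Aldoc and Apoe. The rule behind the panel uses no measured value, but the genes were chosen with earlier results of these data known. All 10 passed the filter on low counts in every fit, with 621 to 252638 reads per gene and library. The libraries came from wild-type mice on a BL/6 background that were housed singly and handled for 3 minutes a day over 5 days. Mice were assigned to a fear group (the series' text names a foot shock), to exposure to the context, or to the home cage, and tissue was taken 90 minutes after the behaviour. Polyadenylated RNA was sequenced from the medial entorhinal cortex (MEC), the lateral entorhinal cortex (LEC), and the hippocampal fields CA3 and CA1, with 3 libraries for each of the 12 combinations of region and condition, 36 in all. The labels used here give neither age nor sex, and they do not tie a library to a mouse. The p-values therefore measure the spread between these libraries. Libraries of different regions may share mice, so p-values of comparisons between conditions averaged over the regions may be too small. For comparisons between regions, shared mice would be a pairing that the main fit does not use.

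Astrocytes take up the glutamate and potassium that neurons release, pass water and metabolites between vessels and neuropil, and join one another through gap junctions into a network. Gfap encodes an intermediate filament of their cytoskeleton, and S100b a small calcium-binding protein that astrocytes also secrete. Aqp4 is the water channel of the endfeet that wrap vessels, Gja1 and Gjb6 encode the connexins of astrocyte gap junctions, and Slc1a2 (GLT-1) and Slc1a3 (GLAST) are the glutamate transporters. Aldh1l1 is an enzyme of folate metabolism, Aldoc a glycolytic aldolase, and Apoe the lipid carrier that astrocytes secrete and that microglia also express.

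Library totals ran between 21871412 and 68974340 counts, with a median of 28098007. The labels of CA3 against CA1 and of entorhinal against hippocampal tissue were matched by their neuronal markers (edgeR, adjusted p under 0.05). MEC and LEC were not checked against each other in this way. In CA3 against CA1, 7 of 7 CA3 pyramidal markers were higher and 6 of 6 CA1 pyramidal markers lower. There 31.0% of all genes were called in either direction, and 14.6% were called lower. Of the neocortical layer markers, 7 of 8 were higher in entorhinal than in hippocampal tissue, where 50.9% of all genes were called in either direction. Per unit of transcript length, the panel spanned a wide range. Slc1a2 averaged 1090 TPM (length-scaled transcript abundance) over the 36 libraries, Aldoc 984 TPM and Apoe 875 TPM. The lower end was held by Gja1 at 88.9 TPM, Gjb6 at 85.8 TPM and Aldh1l1 at 40.6 TPM. Below, levels are CPM (library-scaled read counts) after TMM scaling, differences are log2 differences with their standard error (SE), and a gene was called at an adjusted p under 0.05 by edgeR's quasi-likelihood test with Benjamini-Hochberg adjustment over all genes tested. In whole tissue, fewer astrocytes and less RNA per astrocyte cannot be told apart.

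Averaged over the 4 regions, 4 of the 10 genes were lower after fear than in the home cage, namely S100b, Gfap, Apoe and Aqp4, and none was higher. For comparison, 9.94% of the 17875 genes tested were called lower in that comparison. After context exposure, 4 of the 10 were also lower than in the home cage, namely S100b, Gfap, Apoe and Aldoc, where 8.58% of all genes were called lower. The panel's median log2 difference was -0.119 after fear and -0.177 after context, against -0.003 and -0.027 over all genes. Slc1a2, Slc1a3, Gja1 and Gjb6 were called in neither comparison by edgeR. Both comparisons use the same home cage libraries.

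S100b was lower after fear in each region. In MEC it measured 86.1, 103 and 93.3 CPM after fear, 93.5, 94.1 and 95.4 CPM after context, and 159, 111 and 120 CPM in the home cage. In LEC it measured 92.9, 119 and 97.7 CPM after fear, 139, 109 and 122 CPM after context, and 139, 178 and 157 CPM in the home cage. In both entorhinal regions every fear library lay below every home cage library, and so did every context library in MEC. In CA3 it measured 95, 94.2 and 107 CPM after fear, 110, 106 and 119 CPM after context, and 167, 156 and 116 CPM in the home cage. In CA1 it measured 97.7, 111 and 102 CPM after fear, 135, 135 and 128 CPM after context, and 158, 238 and 135 CPM in the home cage. The fear libraries thus lay below the home cage libraries in all 4 regions without overlap. The main edgeR fits of single regions called that difference in MEC only. The share of all genes whose groups did not overlap was not counted, here or below. Non-overlap is thus only a description. Over the regions S100b fell by 0.60 ± 0.08 after fear (log2, SE, edgeR adjusted p = 5.01e-06) and by 0.41 ± 0.08 after context (edgeR adjusted p = 0.00062). Fear and context differed by -0.20 ± 0.08, which was not called (edgeR adjusted p = 0.116).

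Gfap was lower after both behaviours, by about the same amount when averaged over the regions. In MEC it measured 179, 193 and 204 CPM after fear, 170, 158 and 178 CPM after context, and 295, 209 and 252 CPM in the home cage. In LEC it measured 144, 171 and 151 CPM after fear, 202, 204 and 186 CPM after context, and 233, 283 and 189 CPM in the home cage. The fear libraries lay below all home cage libraries in both entorhinal regions, and the context libraries did so in MEC. The order of the behaviours differed, with all fear libraries below the context libraries in LEC and above them in MEC. Neither of these differences between fear and context was called by edgeR. In CA3 it measured 329, 318 and 320 CPM after fear, 318, 288 and 277 CPM after context, and 459, 612 and 317 CPM in the home cage. In CA1 it measured 344, 579 and 366 CPM after fear, 420, 316 and 440 CPM after context, and 596, 708 and 417 CPM in the home cage. In the hippocampal fields the groups overlapped, since 1 home cage library in each lay at the level of the others. Over the regions Gfap fell by 0.48 ± 0.10 after fear (edgeR adjusted p = 0.000645) and by 0.51 ± 0.10 after context (edgeR adjusted p = 0.000633), and fear and context differed by 0.03 ± 0.10 (edgeR adjusted p = 0.897).

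Apoe spread widely between libraries. In MEC it measured 370, 516 and 454 CPM after fear, 285, 299 and 389 CPM after context, and 390, 358 and 670 CPM in the home cage. In LEC it measured 285, 378 and 405 CPM after fear, 379, 427 and 504 CPM after context, and 752, 663 and 299 CPM in the home cage. The home cage libraries spread more than the others, and the groups overlapped in both regions. In CA3 it measured 349, 417 and 342 CPM after fear, 349, 153 and 199 CPM after context, and 612, 1410 and 422 CPM in the home cage. In CA1 it measured 531, 601 and 486 CPM after fear, 580, 450 and 515 CPM after context, and 875, 676 and 514 CPM in the home cage. In CA3 every fear and context library lay below the home cage libraries, whose second library stood above the other two. Over the regions Apoe fell by 0.56 ± 0.17 after fear (edgeR adjusted p = 0.0164) and by 0.79 ± 0.17 after context (edgeR adjusted p = 0.00179). The fear call ended when the second home cage libraries of the 4 regions were left out (-0.42, edgeR adjusted p = 0.0731), and also without the first fear libraries (-0.49, adjusted p = 0.107) or fear libraries of number 3 (-0.57, adjusted p = 0.0766).

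**Figure D1:**
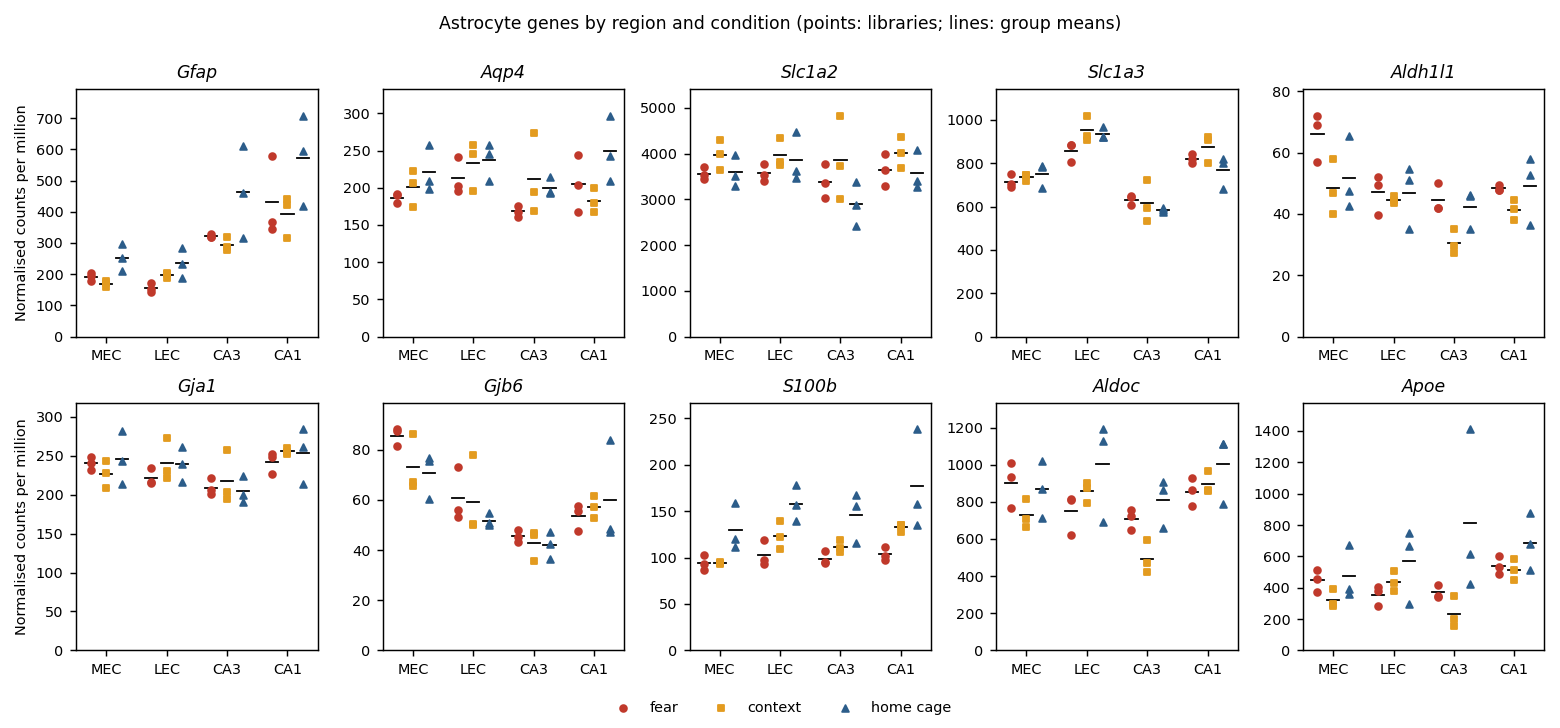
Normalised CPM of the 10 genes (vertical axes, linear from 0) in MEC, LEC, CA3 and CA1. Points are single libraries after fear (circles), after context (squares) and in the home cage (triangles), and lines are means of 3 libraries. S100b is lower after fear than in the home cage in every region, Gfap is higher in the hippocampal fields than in the entorhinal regions, and the second CA3 home cage library stands at 1410 CPM for Apoe.

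Aqp4 had a smaller difference. Its lowest, median and highest levels over the 4 regions were 161, 191 and 244 CPM after fear, 168, 198 and 274 CPM after context, and 193, 211 and 297 CPM in the home cage. It fell by 0.23 ± 0.08 after fear (edgeR adjusted p = 0.0291), and its difference after context was -0.13 ± 0.08 (edgeR adjusted p = 0.232). The fear call ended without any of 4 of the 6 replicate sets compared, sets 1 and 2 of the home cage and sets 1 and 3 of fear, with adjusted p between 0.0654 and 0.179.

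Aldoc, the aldolase, had lowest, median and highest levels of 622, 792 and 1010 CPM after fear, 422, 805 and 965 CPM after context, and 657, 890 and 1190 CPM in the home cage. It fell by 0.34 ± 0.09 after context (edgeR adjusted p = 0.00655), with -0.19 ± 0.09 after fear (edgeR adjusted p = 0.108). The context call ended without the second context libraries (-0.29, edgeR adjusted p = 0.0709). Aldh1l1 measured 39.7, 49.5 and 72.1 CPM after fear, 27.2, 42.7 and 58.1 CPM after context, and 35.0, 46.9 and 65.3 CPM in the home cage. It was the 1 gene of the panel called between the behaviours, higher after fear than after context by 0.32 ± 0.09 (edgeR adjusted p = 0.0413), where 3.37% of all genes were called in either direction. That call ended without any 1 of the 3 sets of either behaviour (adjusted p between 0.0683 and 0.212), and with offsets for GC content and length (0.14, adjusted p = 0.323). Exons of Aldh1l1 overlap those of Gm45901 on the same strand and of the antisense gene Gm15756, so part of its reads may be shared or lost in counting.

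The gap junction and glutamate transporter genes were called in neither comparison by edgeR on the counts. Gja1 had a log2 difference of -0.04 ± 0.06 after fear and 0.00 ± 0.06 after context (edgeR adjusted p = 0.653 and 1.0). Gjb6 had 0.12 ± 0.09 and 0.05 ± 0.09 (adjusted p = 0.376 and 0.738). Slc1a3 had 0.00 ± 0.05 after fear and 0.06 ± 0.05 after context (adjusted p = 0.993 and 0.397). Slc1a2 had 0.03 ± 0.07 after fear and 0.19 ± 0.07 after context (adjusted p = 0.789 and 0.0554); its exons overlap those of the antisense gene Gm13872. After context Slc1a2 was called with the replicate number as a block (0.20, edgeR adjusted p = 0.0482) and was at 0.01 with offsets for GC content and length (adjusted p = 0.888). DESeq2 called 6 of the 10 genes after context, the 4 called by edgeR with Slc1a2 (0.19, adjusted p = 0.045) and Aldh1l1 (-0.23, adjusted p = 0.0493), where it called 25.1% of all genes in either direction. In CA3 after context Slc1a2 was at 0.41 ± 0.20 (edgeR adjusted p = 0.163), at 0.42 in the fit of all 36 libraries (adjusted p = 0.0336) and at 0.05 with the offsets (adjusted p = 0.862). A miss of the threshold does not show that these 4 genes were equal between conditions.

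**Figure D2:**
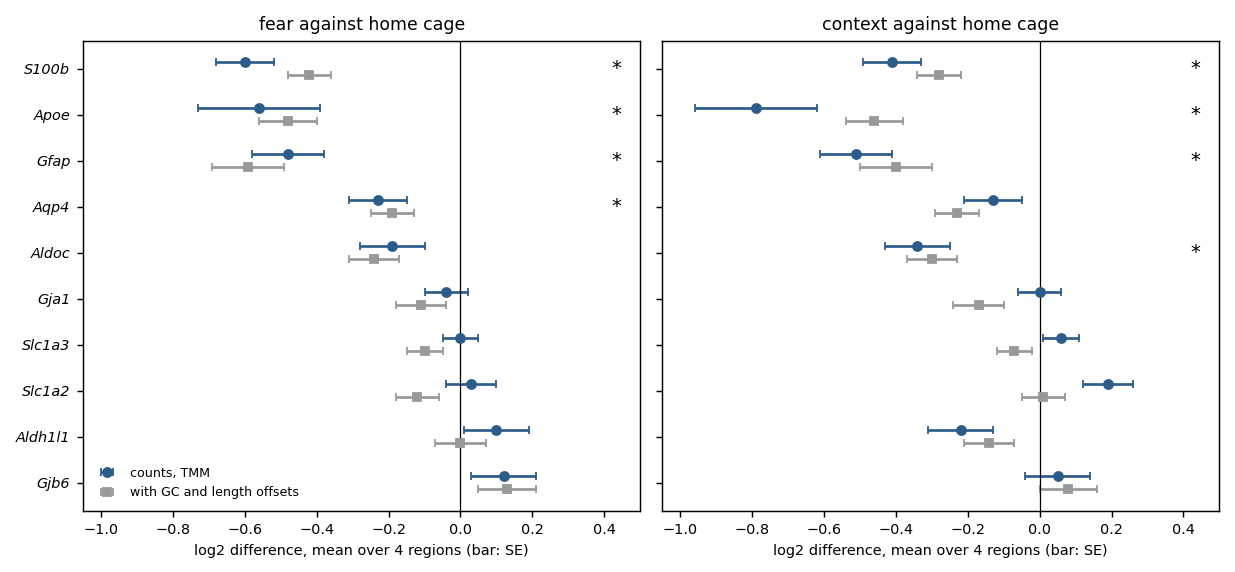
Log2 difference from the home cage averaged over the 4 regions (horizontal axis, bars are SE) after fear and after context, for the 10 genes. Circles are the fit of the counts with TMM scaling, squares add offsets for GC content and length, and asterisks mark an adjusted p under 0.05 in the fit shown by circles. S100b, Gfap and Apoe lie left of 0 in both panels and under both fits.

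Other measures moved with these differences. Over all genes, 9.94% were called lower and 14.2% higher after fear, and 8.58% lower and 13.5% higher after context. Of 73 genes for cytosolic ribosomal proteins, 70 were lower after fear and 73 after context, with median log2 differences of -0.521 and -0.533. In CA1 their summed level ranged between 9870 and 12300 CPM after fear, 10600 and 12000 CPM after context, and 14600 and 20500 CPM in the home cage. The profile of S100b over the 12 group means was most like those of Rpl23 (Pearson r = 0.976) and Timm8b (0.975), and that of Apoe most like Rps15 and Rpl41 (0.979 each), among 8187 genes. The 10 microglial markers had 3 lower and 1 higher after fear and 4 lower after context, with medians of -0.195 and -0.189. Their summed level in CA3 ranged between 357 and 384 CPM after fear, 296 and 342 CPM after context, and 327 and 481 CPM in the home cage. Of 9 neuronal markers, 4 were higher and 0 lower after fear (median 0.266), and 6 were higher and 0 lower after context (median 0.229). Their summed level in MEC ranged between 10100 and 10300 CPM after fear, 9480 and 10400 CPM after context, and 8240 and 8830 CPM in the home cage. In CA1 it ranged between 6800 and 8020 CPM after fear, 6580 and 7390 CPM after context, and 4250 and 6590 CPM in the home cage. With offsets for GC content and length, S100b was at -0.42 after fear and -0.28 after context, Gfap at -0.59 and -0.40, and Apoe at -0.48 and -0.46, all 6 called. Aqp4 after context and Aldoc after fear were called as well under the offsets (-0.23, adjusted p = 0.00827, and -0.24, adjusted p = 0.0163). The part of the ribosomal, microglial and neuronal genes in the differences of the panel was not tested.

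The sequence upstream of the start is shown for the 3 genes lower after both behaviours and for 2 genes called after neither, Slc1a3 and Gja1. RefSeq windows (GRCm38.p6) of 250 bases before the start were searched on both strands for STAT (TTCNNNGAA), AP-1 (TGANTCA), CRE (TGACGTCA) and SOX (ACAATGG) motifs and for the half-sites of NFI (TTGGCA) and of the glucocorticoid receptor (AGAACA). Capitals mark matches, and a sequence without capitals held none.
Gfap, chr11:102897201-102897450, minus strand: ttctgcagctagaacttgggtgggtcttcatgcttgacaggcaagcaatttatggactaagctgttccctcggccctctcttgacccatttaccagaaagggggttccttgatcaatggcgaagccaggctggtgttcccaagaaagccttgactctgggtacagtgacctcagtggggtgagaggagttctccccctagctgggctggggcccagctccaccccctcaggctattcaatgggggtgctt
S100b, chr10:76253586-76253835, plus strand: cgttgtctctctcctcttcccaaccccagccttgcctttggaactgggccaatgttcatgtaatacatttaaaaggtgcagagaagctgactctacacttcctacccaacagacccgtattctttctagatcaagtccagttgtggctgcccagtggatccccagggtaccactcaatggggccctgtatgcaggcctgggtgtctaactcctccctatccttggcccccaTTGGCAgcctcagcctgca
Apoe, chr7:19699189-19699438, minus strand: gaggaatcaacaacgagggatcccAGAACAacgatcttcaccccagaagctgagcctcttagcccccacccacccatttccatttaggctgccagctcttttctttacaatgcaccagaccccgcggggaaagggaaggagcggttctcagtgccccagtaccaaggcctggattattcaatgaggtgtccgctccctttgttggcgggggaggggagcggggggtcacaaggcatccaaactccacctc
Slc1a3, chr15:8710808-8711057, minus strand: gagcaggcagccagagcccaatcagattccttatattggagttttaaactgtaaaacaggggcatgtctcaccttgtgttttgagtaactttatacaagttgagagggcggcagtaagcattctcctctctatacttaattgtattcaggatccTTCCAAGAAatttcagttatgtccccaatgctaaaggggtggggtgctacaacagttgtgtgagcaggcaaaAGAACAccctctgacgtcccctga
Gja1, chr10:56377050-56377299, plus strand: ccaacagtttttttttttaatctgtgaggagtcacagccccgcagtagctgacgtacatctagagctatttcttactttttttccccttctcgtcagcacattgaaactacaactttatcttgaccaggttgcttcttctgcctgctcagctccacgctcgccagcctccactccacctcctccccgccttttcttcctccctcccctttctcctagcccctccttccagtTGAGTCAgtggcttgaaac
Gfap held none of the 6 motifs, S100b an NFI half-site and Apoe a glucocorticoid receptor half-site. The windows of 9 of the 10 genes were searched, and those of Slc1a2, Gjb6 and Aldh1l1 held no match and that of Aldoc an NFI half-site. The windows of Gfap, Slc1a2 and Aldh1l1 precede RefSeq starts that lie inside the genes as annotated by GENCODE. The Aldoc window spans its GENCODE start. For these genes the sequence before the GENCODE start was thus not searched in full. Of the genes called after neither behaviour, Slc1a3 and Gja1 are shown because their windows held matches. Slc1a3 held a STAT match and a glucocorticoid receptor half-site, and Gja1 an AP-1 match. Among the 32851 windows of all genes, 7.02% held the STAT motif, 6.75% AP-1, 1.55% CRE, 3.02% SOX, 12.3% the NFI half-site and 16.1% the glucocorticoid receptor half-site. No motif was shared by the 3 genes lower after both behaviours, and a match or its absence says nothing about binding.

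Within single regions, where each fit held 9 libraries, few genes of the panel passed the test. In MEC, 2 of 10 were called lower after fear, S100b at -0.49 ± 0.13 (edgeR adjusted p = 0.0292) and Gfap at -0.42 ± 0.12 (adjusted p = 0.0374), where 3.88% of all genes were called lower. After context in MEC, Gfap was called at -0.60 ± 0.12 (edgeR adjusted p = 0.036), where 0.0736% of all genes were called lower, and S100b was at -0.49 ± 0.13 (adjusted p = 0.0813; 0.0445 with the replicate number as a block). Oligodendrocyte markers were higher in MEC after fear, 6 of 9 called with a median of 0.724. With RLE size factors, 5.66% of all genes were called higher there. The summed level of these markers ranged between 2520 and 3490 CPM after fear, 2430 and 2860 CPM after context, and 1640 and 2370 CPM in the home cage. With the level of the oligodendrocyte markers as a covariate, S100b in MEC was at -0.99 ± 0.16 after fear (edgeR adjusted p = 0.0229) and Gfap at -0.82 ± 0.16 (adjusted p = 0.0505). The summed marker level did not overlap between the home cage and either behaviour. A fit of 9 libraries can therefore hardly separate that level from the condition, and the larger differences cannot be read as adjusted for oligodendrocytes. The Gfap and S100b fear calls each ended without the second context library, any 1 of the 3 fear libraries or the first home cage library, with adjusted p up to 0.131 for Gfap and 0.112 for S100b; without the first home cage library they were at -0.28 and -0.31. With offsets for GC content and length the S100b call also ended (-0.26, edgeR adjusted p = 0.0639). The Gfap call after context ended without any 1 of the 3 context libraries, fear library 2 or 3, or home cage library 1 (adjusted p up to 0.144).

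In CA3 after context, 3 of 10 were called lower, where 8.13% of all genes were: Apoe at -1.82 ± 0.42 (edgeR adjusted p = 0.045), Aldoc at -0.72 ± 0.18 (adjusted p = 0.045) and Gfap at -0.67 ± 0.20 (adjusted p = 0.0486). Aldoc measured 594, 422 and 468 CPM after context and 909, 862 and 657 CPM in the home cage, without overlap. All 3 calls ended without context library 2 or 3, any fear library, or home cage library 1 or 2. Without the second home cage library Apoe was at -1.16, Aldoc at -0.67 and Gfap at -0.41 (adjusted p = 0.165, 0.165 and 0.183). With offsets for GC content and length Gfap was at -0.16 (adjusted p = 0.6), and Apoe at -0.81 (adjusted p = 0.0486). Ribosomal protein genes were at a median of -0.895 in this comparison, and the haemoglobin and other blood markers at -1.519.

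In LEC, CA3 and CA1 after fear, none of the panel was called by edgeR, where 0.0%, 0.00619% and 0.0% of all genes were called. At an unadjusted p under 0.05 there were 4 of 10 in LEC (7.57% of all genes), 3 in CA3 (18.9%) and 1 in CA1 (22.0%). DESeq2 called 0 of 10 in LEC (0.238% of all genes), 1 in CA3 (3.96%) and 1 in CA1 (8.67%). In LEC and CA1 after context, none was called by edgeR either, where 0.0% of all genes were called in both. There 1 of 10 in LEC (2.46% of all genes) and 4 in CA1 (21.3%) had an unadjusted p under 0.05, and DESeq2 called 0 in LEC (0.0183% of all genes) and 0 in CA1 (6.56%). S100b in CA1 after fear was at -0.78 ± 0.18 (edgeR adjusted p = 0.0672; -0.75 and 0.0342 with the replicate number as a block). Without the second context and home cage libraries of CA1 it was at -0.49 (adjusted p = 0.223), and with offsets for GC content and length at -0.51 (adjusted p = 0.107). In LEC after fear S100b was at -0.64 ± 0.15 and Gfap at -0.62 ± 0.15 (adjusted p = 0.527 each). Between fear and context no gene of the panel was called in any single region by edgeR or DESeq2, and edgeR called 0.0% of all genes in each. At an unadjusted p under 0.05 there were 3 of 10 in MEC (14.7% of all genes), 1 in LEC (1.26%), 2 in CA3 (23.4%) and 0 in CA1 (5.68%), and DESeq2 called 0.294%, 0.0%, 4.52% and 0.0928% of all genes in MEC, LEC, CA3 and CA1. The test of whether the conditions differed between regions called 0 of the 10 by edgeR (0.0% of all genes) and by DESeq2 (0.627%), with 0 at an unadjusted p under 0.05 (10.2%). No difference in response between regions was called for the 10 genes.

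**Figure D3:**
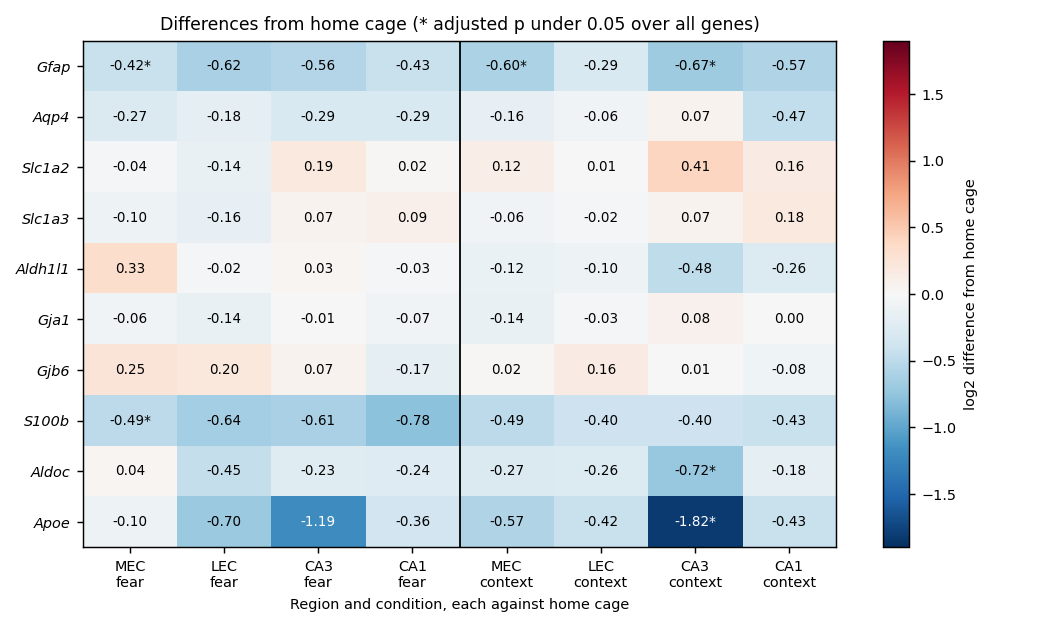
Log2 difference from the home cage (colour and printed value) for each of the 10 genes (rows) in MEC, LEC, CA3 and CA1 after fear and after context (columns), each from a fit of the 9 libraries of that region. Asterisks mark an adjusted p under 0.05 over all genes. The rows of Gfap, S100b and Apoe are below 0 in all 8 columns, and the lowest value is Apoe in CA3 after context at -1.82.

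Between entorhinal and hippocampal tissue the panel held differences in both directions. Averaged over the conditions, Gjb6, Slc1a3 and Aldh1l1 were higher and Gfap was lower in entorhinal than in hippocampal tissue, 4 of 10 called where 50.9% of all genes were. Gfap had the widest regional range, 158, 193 and 295 CPM (lowest, median and highest of 9 libraries) in MEC, 144, 189 and 283 CPM in LEC, 277, 318 and 612 CPM in CA3, and 316, 420 and 708 CPM in CA1. MEC and LEC thus lay below CA1 without overlap and overlapped CA3, and the entorhinal difference from the hippocampal fields was -1.03 ± 0.08 (edgeR adjusted p = 1.67e-12). MEC and LEC did not differ beyond their spread for Gfap (0.06 ± 0.11, adjusted p = 0.78), and CA3 was below CA1 (-0.38 ± 0.11, adjusted p = 0.0109). The CA3 call ended without the context libraries of number 3 (adjusted p = 0.0617) or the second fear libraries (adjusted p = 0.0737). Oligodendrocyte markers were also lower in entorhinal tissue, 9 of 9 with a median of -1.831. With RLE size factors, 25.0% of all genes were called lower there.

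The connexins differed from each other. Gjb6 measured 60.4, 76.8 and 88.1 CPM in MEC, 49.8, 53.0 and 77.9 CPM in LEC, 35.8, 45.2 and 48.1 CPM in CA3, and 47.3, 55.7 and 83.8 CPM in CA1. Every MEC and LEC library lay above every CA3 library, and the entorhinal difference from the hippocampal fields was 0.41 ± 0.07 (edgeR adjusted p = 1.87e-05). Gjb6 was higher in MEC than in LEC by 0.42 ± 0.10 (adjusted p = 0.00402), and LEC and CA1 did not differ beyond their spread (0.01 ± 0.10, adjusted p = 0.962). Gja1 averaged 238 ± 21.3 CPM in MEC, 234 ± 20.8 CPM in LEC, 211 ± 20.7 CPM in CA3 and 251 ± 20.3 CPM in CA1 (SD, n = 9 each), and was lower in CA3 than in CA1 by 0.25 ± 0.07 (adjusted p = 0.00556). Its higher level in MEC than in CA3 (0.17 ± 0.07, adjusted p = 0.044) was lost with RLE size factors (adjusted p = 0.0596) and without 7 of the 9 replicate sets (adjusted p up to 0.201).

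Of the glutamate transporters, Slc1a3 had the calls between regions in the counts. Slc1a3 averaged 734 ± 36.9 CPM in MEC, 915 ± 57.7 CPM in LEC, 612 ± 54.8 CPM in CA3 and 821 ± 69.4 CPM in CA1 (SD, n = 9 each). It was called in all 7 regional comparisons, among them lower in MEC than in LEC by 0.32 ± 0.06 (edgeR adjusted p = 0.000196) and lower in CA3 than in CA1 by 0.42 ± 0.06 (adjusted p = 1.22e-06). Slc1a2 averaged 3710 ± 313 CPM in MEC, 3800 ± 379 CPM in LEC, 3380 ± 692 CPM in CA3 and 3740 ± 386 CPM in CA1, and was called in none of the 7 by edgeR on the counts. With offsets for GC content and length Slc1a2 was called between CA3 and CA1 (-0.28, adjusted p = 0.000813) and between LEC and CA3 (0.18, adjusted p = 0.0238). The small Slc1a3 differences from CA1, 0.16 ± 0.06 in LEC and -0.16 ± 0.06 in MEC, lost their calls without a filter on low counts (adjusted p = 0.0716 and 0.12), without 4 and 5 of the 9 replicate sets, and, in LEC, with offsets for GC content and length (0.03, adjusted p = 0.679).

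Aldh1l1 averaged 55.4 ± 11.7 CPM in MEC, 46.2 ± 6.28 CPM in LEC, 39.2 ± 7.90 CPM in CA3 and 46.3 ± 6.84 CPM in CA1 (SD, n = 9 each), and was higher in entorhinal tissue by 0.25 ± 0.07 (edgeR adjusted p = 0.00333). Aldoc averaged 833 ± 131 CPM in MEC, 869 ± 186 CPM in LEC, 671 ± 163 CPM in CA3 and 917 ± 123 CPM in CA1, and was lower in CA3 than in CA1 by 0.48 ± 0.10 (adjusted p = 0.000481). CA3 was thus the lowest region for Aldoc, Aldh1l1, Slc1a2, Slc1a3, Gja1, Gjb6 and Aqp4 by mean level, though not every step was called. S100b was lower in MEC than in CA1 (-0.36 ± 0.09, adjusted p = 0.00181) and than in LEC (-0.27 ± 0.09, adjusted p = 0.0406), and the LEC call ended without 7 of the 9 replicate sets (adjusted p up to 0.131). Apoe was lower in MEC than in CA1 (-0.49 ± 0.20, adjusted p = 0.0436), a call that ended with the replicate number as a block (adjusted p = 0.0596) and without 8 of the 9 replicate sets. Aqp4 was called in 1 comparison, higher in LEC than in CA3 by 0.24 ± 0.09 (adjusted p = 0.0327), which ended with the offsets (0.15, adjusted p = 0.0909) and without 5 replicate sets.

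In the pairwise comparisons, 3 of 10 genes were called between MEC and LEC (17.4% of all genes), 5 between CA3 and CA1 (31.0%), 2 between LEC and CA1 (46.6%), and 6 each in MEC against CA1 (43.6%), LEC against CA3 (39.8%) and MEC against CA3 (38.4%). All 5 genes called between CA3 and CA1 were lower in CA3, where 14.6% of all genes were called lower, and with offsets for GC content and length all 10 were, where 19.9% of all genes were called lower. In that comparison the ribosomal protein genes had 62 of 73 lower (median -0.455), 8 of 10 microglial markers were lower, and 6 of 9 neuronal markers were higher. With RLE size factors, 17.2% of all genes were called higher in CA3 than in CA1.

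**Figure D4:**
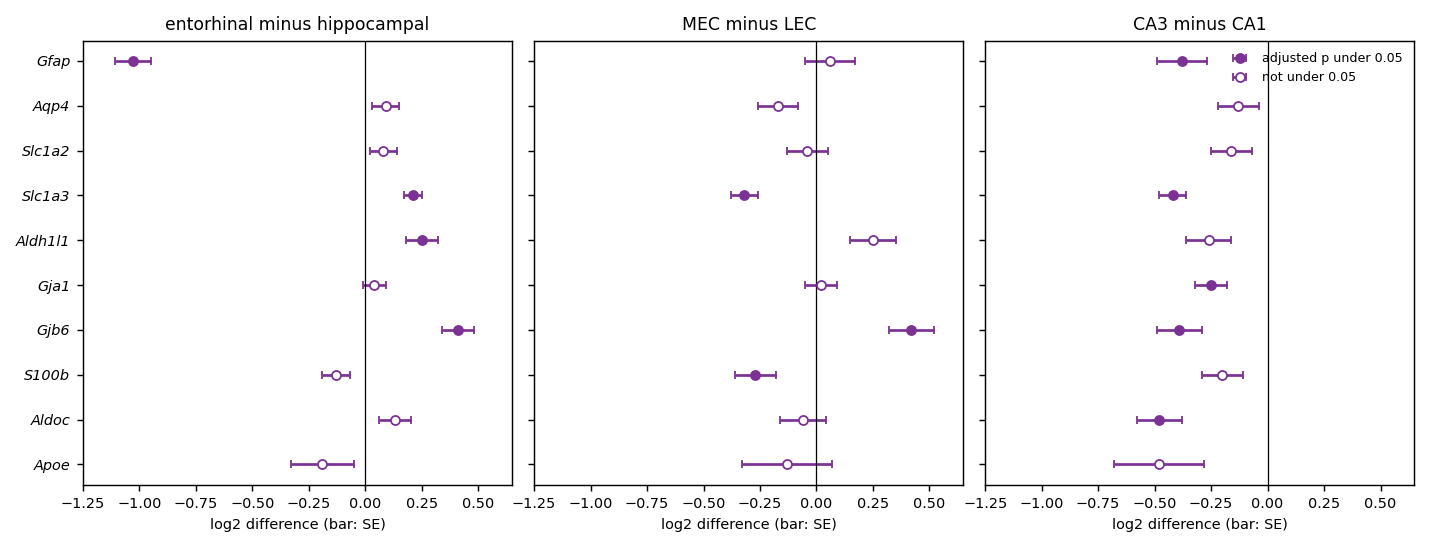
Log2 difference between regions averaged over the 3 conditions (horizontal axis, bars are SE) for the 10 genes, as entorhinal minus hippocampal, MEC minus LEC and CA3 minus CA1. Filled circles mark an adjusted p under 0.05. Gfap lies at -1.03 in the first panel, Gjb6 lies right of 0 in the first and second, and all 10 genes lie left of 0 in the third.

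A list of 34 further astrocyte genes held calls in both directions. The shares of all genes called were 14.2% higher and 9.94% lower after fear, and 13.5% higher and 8.58% lower after context. The 4 listed genes called higher after fear are near the share of all genes. After fear 4 were higher and 10 lower (median -0.021), with Etnppl up 0.60 ± 0.12, Atp1b2 up 0.28 ± 0.07, and the glial transcription factor Sox9 at -0.64 ± 0.08 (edgeR adjusted p = 3.89e-06). The glycogen-targeting subunit Ppp1r3c was at -0.44 ± 0.08 and Nkain4 at -0.39 ± 0.11. After context none was higher and 12 were lower (median -0.191), with Id3 at -1.12 ± 0.20, the metallothionein Mt1 at -1.16 ± 0.25, Nkain4 at -0.54 ± 0.11 and Slc25a18 at -0.51 ± 0.11 (edgeR adjusted p at most 0.00193). Between entorhinal and hippocampal tissue 10 were higher, led by Sparcl1 (0.43 ± 0.05) and Slc25a18 (0.72 ± 0.09), and 12 lower, led by Ntsr2 (-0.38 ± 0.06) and Cbs (-0.45 ± 0.09). There 50.9% of all genes were called in either direction.

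The first 4 lists below hold lipid carriers and ABC transporters, endfoot partners of Aqp4, lactate and glycogen genes, and synapse organisers. Over all genes, 14.2% were called higher after fear and 13.5% after context, and 8.58% were called lower after context. The 2 of 10 endfoot partners and 2 of 12 lactate and glycogen genes called higher after fear are near that share. No gene of these 4 lists was called lower after fear, where 9.94% of all genes were. Of 14 genes for lipid carriers and ABC transporters, 6 were higher and none lower after fear, among them the sorting receptor Sort1 (0.55 ± 0.09), and the lipid exporters Abcg1 (0.54 ± 0.10) and Abca1 (0.26 ± 0.06). After context 4 were higher, Sort1 at 0.47 ± 0.09 and Abca1 at 0.25 ± 0.06 among them, and Lcat was lower (-0.27 ± 0.09). Of 10 endfoot partners of Aqp4, 2 were higher after fear, Dag1 (0.55 ± 0.11) and Lama2 (0.30 ± 0.08), and 1 after context, Dmd (0.16 ± 0.06, edgeR adjusted p = 0.0488). Of 12 genes of lactate and glycogen handling, 2 were higher after fear, the glucose transporter Slc2a1 (0.43 ± 0.13) and the lactate transporter Slc16a7 (0.34 ± 0.13). Of 12 synapse organisers, the phagocytic receptors Mertk (0.39 ± 0.06) and Megf10 (0.26 ± 0.07) were higher after fear, and after context 3 were higher and 3 lower. Of 24 reactive astrocyte genes tested, Fkbp5, a glucocorticoid-induced gene, was higher after fear (0.42 ± 0.08) and after context (0.30 ± 0.08), and S100a10 was lower (-0.37 ± 0.12 in each). The numbers of reactive genes called in each direction are not given here. The named genes are thus not a share of that list.

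Over the 12 group means, the mean profile of the panel was most like those of Mlc1 (Pearson r = 0.951), Ndrg2 (0.935), Thap11 (0.926), Emp2 (0.920) and Ramp1 (0.916). Within the panel, Aldoc and Apoe had r = 0.835 and Aldh1l1 and Gjb6 0.791, while Gfap and Gjb6 had -0.530. Gfap alone was most like Aamdc (0.974) and Coq2 (0.965), and Gjb6 most like Vipr1 (0.969) and Igfbp5 (0.968). These values are descriptions over 12 points that share libraries and depth.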

How the data were processed

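RNA of 36 libraries was sequenced from an Illumina TruSeq stranded poly(A) library, per the labels' protocols. The deposited values are raw read counts per gene and library; the submitters' processing notes name Trimmomatic 0.33, STAR 2.7.10b, HTSeq 2.0.1 and build mm10, with no roles or strand setting given in the sources used here. Of 37315 genes, 95.2% of identifiers were given a symbol from GENCODE annotation of GRCm38.

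The genes and lists were chosen with earlier results of these data known, and the ribosomal protein list, the oligodendrocyte covariate and the omission of the second context and home cage libraries of CA1 or CA3 were added after values were seen. Named genes outside the panel are the up to 4 called genes with the smallest p per list and direction. Some of the genes that this rule names are not reported here. Counts were tested with edgeR 4.0.16 (R 4.3.3; TMM, filterByExpr, robust quasi-likelihood, 6 residual degrees of freedom in regional fits and 24 in the fit of 36 libraries). Alternatives were DESeq2 1.42.0, RLE factors, no filter, GC and length offsets (spline with 5 degrees of freedom), a replicate block and leaving out libraries. The code was tested on simulated data. Log2 CPM used a prior count of 2. TPM was computed from union exon lengths. Counting error is small at these depths, so precision is set by the 3 libraries per group. Replicate numbers are shared between groups. In 2 of 12 condition comparisons and 4 of 18 region comparisons, same-numbered libraries deviated together, with every correlation over 0.1 across 10149 genes. The 2 were CA1 fear against home cage (0.304, 0.397 and 0.232) and MEC context against home cage (0.604, 0.331 and 0.759). Other comparisons held negative correlations, such as LEC context against home cage (-0.52, 0.304 and -0.688). The replicate numbers are thus not read as shared mice or batches.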

Additional observations from a re-analysis of the deposited data

How the results depend on the processing

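None of the 47 called values of the panel reversed direction under any alternative run. DESeq2 lost 0 of them, RLE factors 1, the replicate block 2, no filter on low counts 6, and GC and length offsets 7; of 2620 uncalled values, 165 changed sign. The shares of all genes called, in either direction, are in brackets. The number of genes called in MEC after fear (2) was 1 with the offsets (12.4%) and 1 with the oligodendrocyte covariate (0.478%). It was 0 in the fit of all 36 libraries (1.34%), and 0 to 3 without single libraries. In MEC after context (1) it was 2 with no filter (1.7%), 2 by DESeq2 (3.43%), 2 with the replicate block (4.09%) and 2 with the covariate (0.772%). It was 0 with the offsets (2.75%) and 0 in the fit of 36 libraries (0.00559%), and 0 to 2 without single libraries. In MEC fear against context (0) the replicate block gave 1, Aldh1l1 (4.81%). In CA3 after context (3 lower) it was 5 in the fit of 36 libraries, 4 lower and Slc1a2 higher (28.3% of all genes), 4 by DESeq2 with Aldh1l1 added (-0.48, adjusted p = 0.0333; 25.2% of all genes), 0 without the second context and home cage libraries (0.0% of all genes), and 0 to 5 without single libraries. In CA3 after fear (0) it was 1 by DESeq2 (3.96%) and 2 in the fit of 36 libraries (6.91%), and 0 to 2 without single libraries. In CA1 after fear (0) it was 1, S100b, with no filter (2.28%), by DESeq2 (8.67%), with the replicate block (4.42%) and in the fit of 36 libraries (4.21%). It was 0 to 1 there without single libraries. Without single libraries the number was 0 to 2 in LEC after fear and 0 to 3 in CA3 fear against context, where edgeR had called 0.

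Over the 36 libraries, leaving out replicate sets gave 2 to 5 genes for fear against home cage, 3 to 6 for context against home cage, 0 to 1 for fear against context, 1 to 2 for LEC against CA1, 3 to 6 for MEC against CA1, and 4 to 7 for CA3 against CA1. The offsets gave 10 for CA3 against CA1 (37.9% of all genes) and 0 for fear against context (0.699%). No filter gave 1 for LEC against CA1 (29.0%). Shares over all genes are not set beside the counts without single libraries or replicate sets. The replicate block ended the calls of Gfap in CA3 after context (adjusted p = 0.0532) and of Apoe between MEC and CA1, and added calls of Slc1a2 after context over the regions (0.20, adjusted p = 0.0482), of Aldh1l1 in MEC after fear (0.34, adjusted p = 0.0359) and of Apoe between CA3 and CA1 (-0.52, adjusted p = 0.0458). The causes were not tested.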
